A study of Mus musculus with 12 samples.

Results

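The interferon-induced gene families are the genes that cells transcribe in answer to interferons, taken here together with the receptor chains and transcription factors that carry the signal. Members were the rows of the deposited mouse expression table whose gene symbol belongs to one of these families by name, and 76 of 20606 rows matched. They comprise 4 interferon receptor chains, 2 Stat factors, 9 Irf factors, 10 guanylate-binding proteins, 5 immunity-related GTPases, 10 genes of the oligoadenylate synthetase family, Isg15 and its protease Usp18, 11 PYHIN proteins, 6 Ifit proteins, 7 Ifitm proteins and 10 other interferon-induced genes. Mx1 and Mx2 were not analysed here.

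The data are 12 bulk libraries of polyA RNA from mouse lung fibroblasts, in 4 groups of 3. M-MF and M-MyoF are matrix fibroblasts and the subgroup labelled MyoF, a name the labels do not spell out, from mice with lung metastasis, and N-MF and N-MyoF are the same subgroups from normal mice. The question is how each subgroup changes when breast cancer has spread to the lung. For the mice, the strain, age, sex, tumour cells and any treatment were not stated in the labels, and neither was the way of purifying the subgroups. Whether the 3 libraries of a group come from different mice is not labelled, and the spread that the p-values rest on may thus be technical.

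Interferons act through paired receptor chains. Type I interferons bind Ifnar1 with Ifnar2, which leads to a complex of Stat factors and Irf9 that binds the interferon-stimulated response element (ISRE), whereas interferon gamma binds Ifngr1 with Ifngr2, which leads to a Stat dimer that binds the gamma-activated site (GAS). The genes switched on block virus entry and replication, attack the compartments that hold intracellular microbes, sense foreign nucleic acids and raise antigen presentation, and fibroblasts are well known responders.

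Values are FPKM, fragments per kilobase scaled to the mapped fragments of the library, so levels may be compared between genes, but the read depth is unknown. Sums per library ran from 528176 to 618478 FPKM, of which the members held 0.887% to 1.22%. Fibroblast markers were high in the MF libraries, where 10 of them summed to 15906 to 16035 FPKM in M-MF and 22431 to 22685 FPKM in N-MF. The 9 matrix fibroblast markers were lower with metastasis, at 2135 to 2167 FPKM in M-MF against 6669 to 6874 FPKM in N-MF and at 477 to 481 FPKM in M-MyoF against 1128 to 1152 FPKM in N-MyoF, with 8 of 9 lower in each comparison. In the MyoF libraries the 10 fibroblast markers summed to 2272 to 2294 FPKM in M-MyoF and 4073 to 4138 FPKM in N-MyoF. The 10 myofibroblast markers summed to 3707 to 3758 FPKM in M-MyoF and 5801 to 5869 FPKM in N-MyoF, against 408 to 413 FPKM in M-MF and 535 to 548 FPKM in N-MF. The 12 epithelial markers summed to 16653 to 17176 FPKM in M-MyoF and 19937 to 20442 FPKM in N-MyoF, so the MyoF libraries held more epithelial than myofibroblast marker RNA. In M-MF the epithelial markers summed to 3288 to 3318 FPKM, against 2588 to 2640 FPKM in N-MF. Of the 11 tested, 8 were higher and 3 lower in M-MF. In bulk libraries, fewer cells of a type and less RNA per cell cannot be told apart.

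Most of the family genes were higher in the libraries from mice with lung metastasis, in both subgroups. Of the 76 members, 64 reached 1 FPKM in at least 3 libraries and were tested with limma on log2(FPKM + 1), with Benjamini-Hochberg adjustment over all 13300 genes tested and a threshold of 0.05. In M-MF against N-MF, 52 of the 64 were higher (81.2%; 46.3% of all genes tested) and 9 lower (14.1%; 31.8% of all genes). At 2-fold or more, 24 were higher (37.5%; 9.32% of all genes), and Ifit2 alone was lower (2.54% of all genes). In M-MyoF against N-MyoF, 50 were higher (78.1%; 49.1% of all genes) and 9 lower (31.6% of all genes), and at 2-fold or more 31 were higher (48.4%; 11.4% of all genes) and 0 lower (3.24% of all genes). The median log2 fold change of the tested members was 0.75 in M-MF against N-MF and 0.92 in M-MyoF against N-MyoF, beside 0.08 and 0.11 for all genes tested. The same 47 members were higher in both comparisons (73.4%; 36.7% of all genes), 19 of them at least 2-fold in both (29.7%; 6.25% of all genes), and 5 were lower in both (7.81%; 21.2% of all genes).

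How many genes counted as higher depended on the scaling between libraries. Setting all library sums equal, scaling by median ratios, and quantile normalizing moved the median of all genes to -0.01, -0.03 and -0.09 in M-MF against N-MF and to -0.05, -0.03 and -0.10 in M-MyoF against N-MyoF. In M-MF against N-MF, 47, 45 and 45 members were then higher and 10, 10 and 12 lower, while 39.6%, 38.2% and 33.3% of all genes were higher and 39.7%, 41.7% and 47.1% lower. In M-MyoF against N-MyoF, 46, 47 and 45 members were then higher and 13, 13 and 15 lower, while 37.5%, 39.3% and 34.5% of all genes were higher and 44.4%, 42.3% and 48.1% lower. With a pseudocount of 5 in place of 1, which shrinks the folds of low genes, 13 members were at least 2-fold higher in M-MF and 19 in M-MyoF. The 12 members not tested were Ifit1bl1, Ifit1bl2, Ifitm7, Irf4, Ifi206, Ifi208, Ifi209, Ifi213, Ifi214, Oas1e, Oas1h and Ifi27l2b, whose highest value in any library was 1.28 FPKM.

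**Figure D1:**
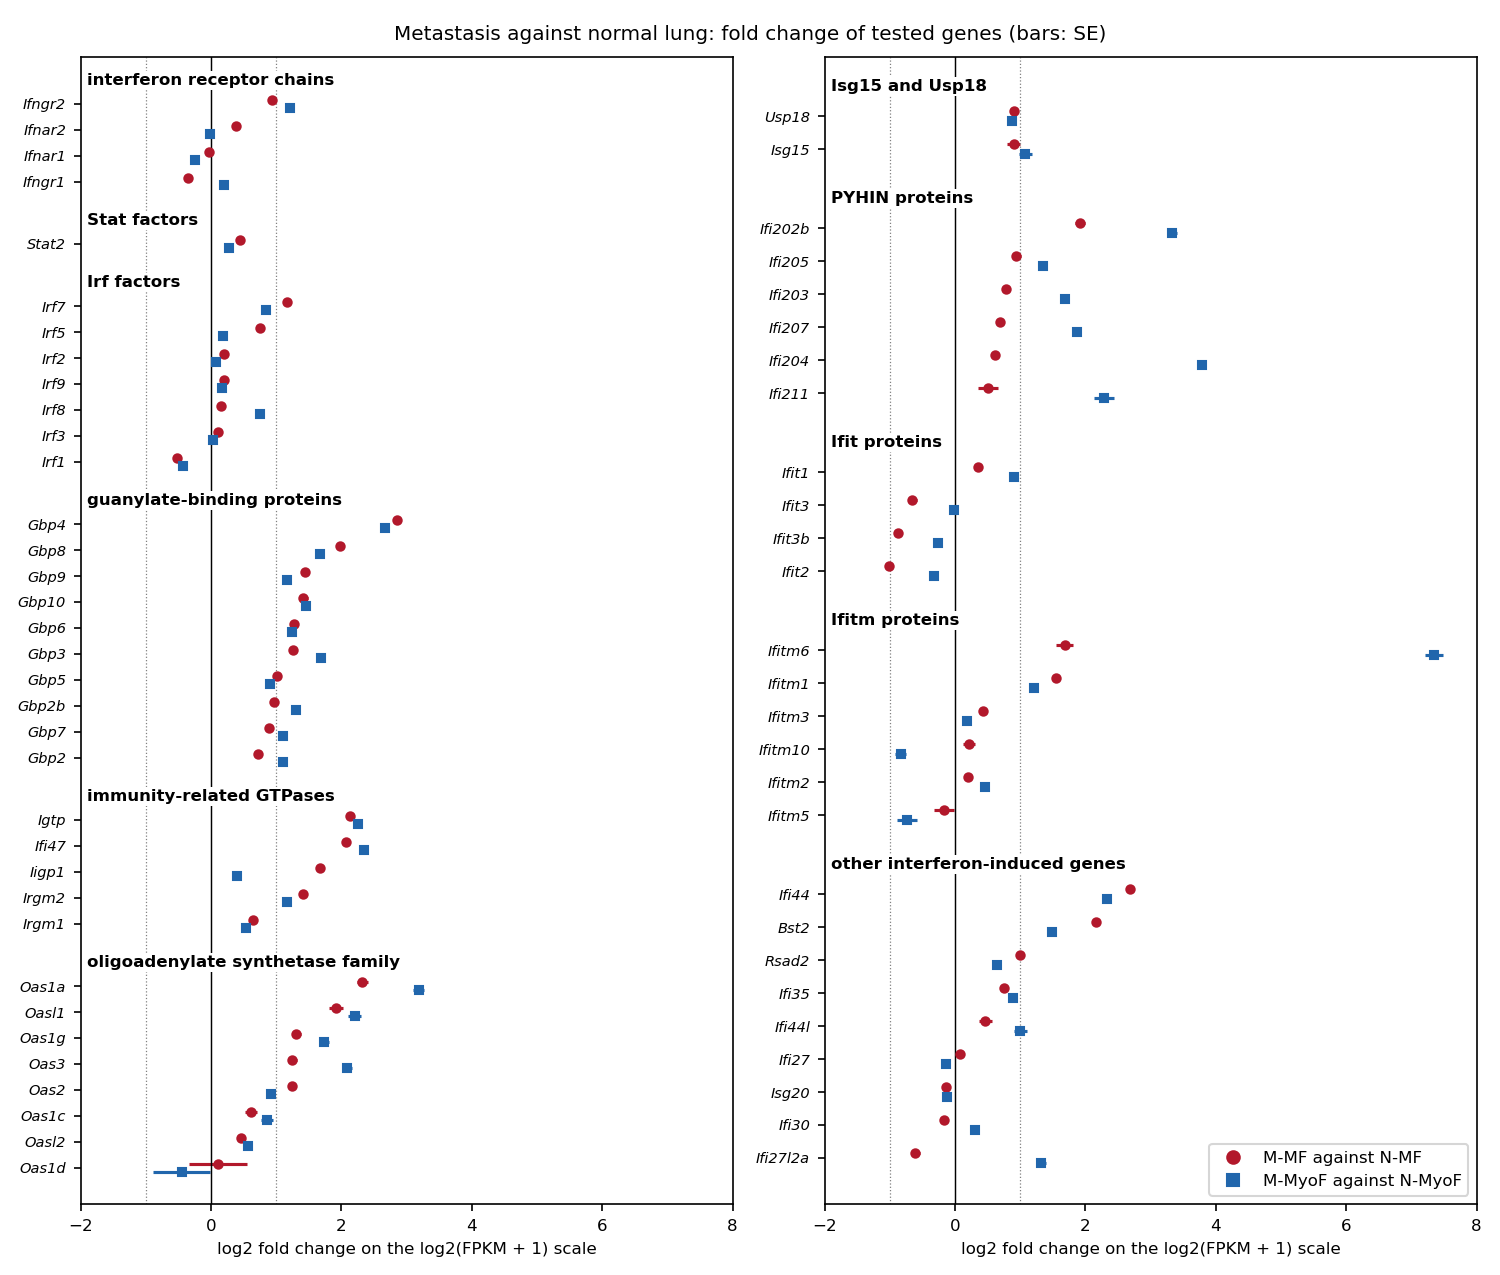
Log2 fold change on the log2(FPKM + 1) scale (x axis) of 62 tested members, by family, in M-MF against N-MF (red circles) and M-MyoF against N-MyoF (blue squares); bars are SE and dotted lines mark a 2-fold change. All guanylate-binding proteins and immunity-related GTPases lie right of 0 in both comparisons, while Irf1, Ifit2 and Ifit3b lie left of 0, and Ifitm6 reaches 7.34 in the MyoF comparison.

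Markers of other cell types moved with metastasis too. The 13 neutrophil markers, all tested, were 11 higher and 0 lower in M-MF against N-MF, and 13 higher in M-MyoF against N-MyoF. Their sums were 262 to 271 FPKM in M-MF and 34.3 to 38.9 FPKM in N-MF, where Ltf and Mpo lay under 0.1 FPKM. In M-MyoF they summed to 13454 to 13796 FPKM, and in N-MyoF to 144 to 157 FPKM. The 14 monocyte and macrophage markers summed to 364 to 389 FPKM in M-MF, 315 to 328 FPKM in N-MF, 1195 to 1242 FPKM in M-MyoF and 1048 to 1098 FPKM in N-MyoF. Of their 11 tested genes 3 were higher and 4 lower in M-MF, and 3 higher and 5 lower in M-MyoF. The 12 T and NK cell markers in the table summed to 3.42 to 3.87 FPKM in M-MF and 2.47 to 2.89 FPKM in N-MF, with Cd8a and Klrb1c under 0.1 FPKM in both groups, and to 11.7 to 22.4 FPKM in M-MyoF and 14.3 to 15.2 FPKM in N-MyoF. The 10 endothelial markers summed to 990 to 1010 FPKM in M-MF, against 242 to 246 FPKM in N-MF. In M-MyoF they summed to 723 to 725 FPKM, against 612 to 626 FPKM in N-MyoF. Of the 10, 8 were higher and 2 lower in M-MF, where 2 were at least 2-fold higher and 1 at least 2-fold lower. In M-MyoF 5 were higher and 4 lower. The median log2 fold changes were 0.46 and 0.16. The 10 mesothelial markers summed to 277 to 282 FPKM in M-MF, against 29.2 to 30.3 FPKM in N-MF, and to 266 to 275 FPKM in M-MyoF, against 140 to 144 FPKM in N-MyoF. The 10 B cell and plasmacytoid dendritic cell markers summed to 55.3 to 55.9 FPKM in M-MF, against 4.77 to 4.96 FPKM in N-MF. In M-MyoF they summed to 40.7 to 43.8 FPKM, against 20.4 to 21.7 FPKM in N-MyoF. Of their 4 tested genes, 2 were higher and 0 lower in M-MF, and 2 higher and 1 lower in M-MyoF. The part of these cells in the results that follow was not tested.

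Many of the members, but not all, hold interferon motif letters in their promoters. RefSeq promoters on GRCm38.p6, from 250 bases before to 50 after the transcription start, were matched for 60 of the 76 members and 50 of the 64 tested. They were searched on both strands for the ISRE letters (GAAA, any 2 bases, GAAA) and the GAS letters TTCNNNGAA, and 1 stretch could count for both. The ISRE letters stood in 26 of the 50 (52.0%), against 407 of 10564 tested genes with a promoter (3.85%), and the GAS letters in 17 (34.0%) against 897 (8.49%). Either stood in 35 of the 50, where close copies such as Ifit3 and Ifit3b were counted separately. All 5 guanylate-binding proteins with a promoter held ISRE letters, as did 3 of 4 immunity-related GTPases, 4 of 5 PYHIN genes, 3 of 4 Ifit genes and 4 of 6 oligoadenylate synthetase genes. None of the 4 receptor chains did. Of 13 members with a promoter that were at least 2-fold higher in both comparisons, 7 held ISRE letters and 6 GAS letters. Of 4 that were lower in both, 1 held ISRE letters and 3 GAS letters. A match in these letters is not a shown binding site, and no match says only that they are not in this window.

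**Figure D2:**
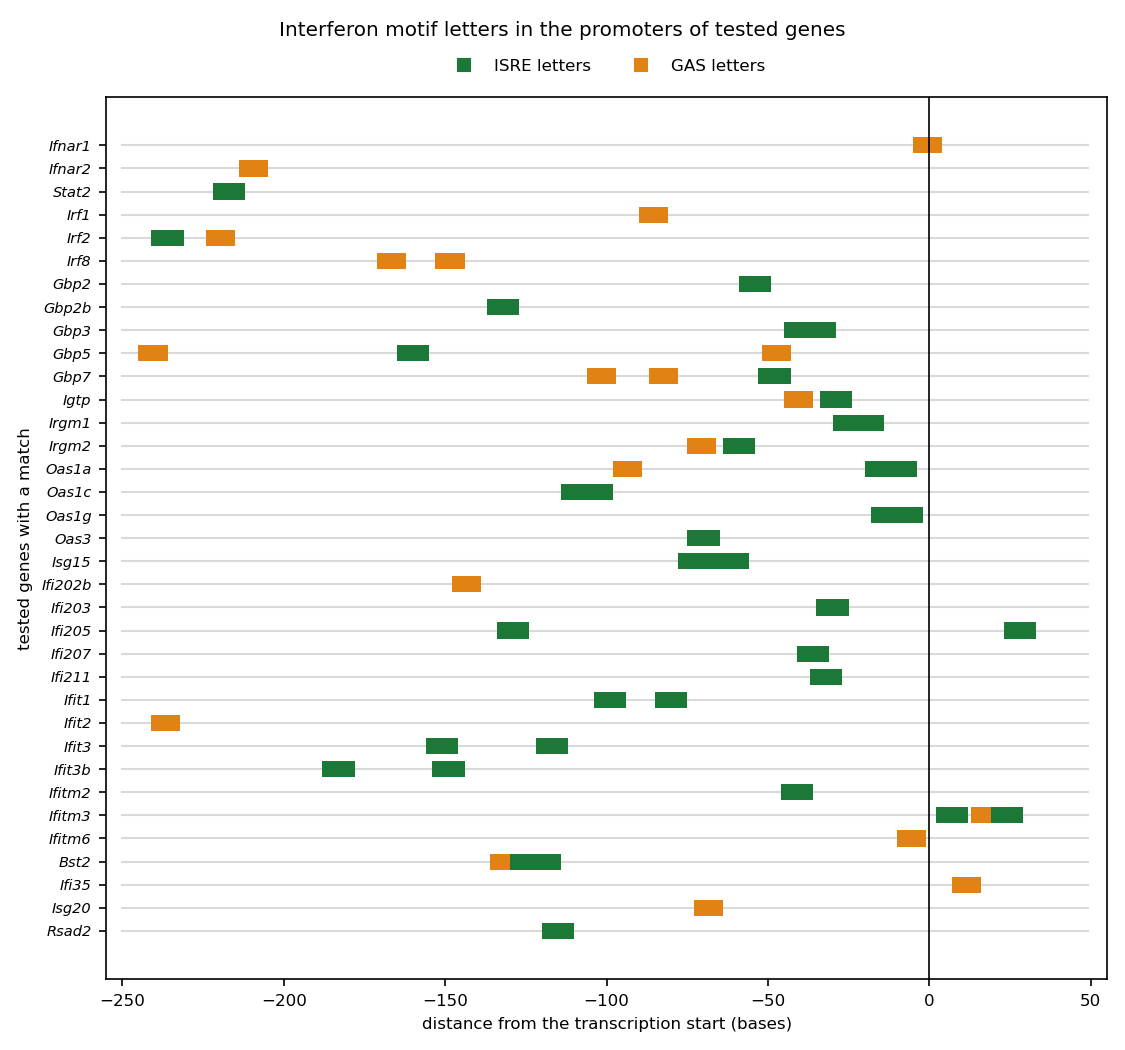
Matches to the ISRE letters (green) and GAS letters (orange) in the promoters of the 35 tested members that hold either, by distance from the transcription start in bases (x axis); grey lines span the 300 bases searched. Of 39 ISRE matches, 32 lie within the 160 bases before the start.

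The stretches printed are the 160 bases before the start, in the gene's direction, with motif matches in capitals. Igtp and Irgm2, neighbouring GTPase genes that were higher in both comparisons, carry the GAS and ISRE letters side by side.
Igtp, chr11:58199396-58199555, plus strand: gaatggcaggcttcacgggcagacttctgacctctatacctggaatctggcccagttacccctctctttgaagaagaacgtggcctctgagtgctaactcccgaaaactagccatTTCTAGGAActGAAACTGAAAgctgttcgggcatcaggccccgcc
Irgm2, chr11:58214817-58214976, plus strand: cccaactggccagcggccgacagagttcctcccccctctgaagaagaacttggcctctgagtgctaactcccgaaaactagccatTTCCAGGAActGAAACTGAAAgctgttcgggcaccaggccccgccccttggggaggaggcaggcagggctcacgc
Gbp3 and Gbp7 are guanylate-binding protein genes with the ISRE letters close to the start, and Gbp7 also has a pair of GAS matches.
Gbp3, chr3:142559884-142560043, plus strand: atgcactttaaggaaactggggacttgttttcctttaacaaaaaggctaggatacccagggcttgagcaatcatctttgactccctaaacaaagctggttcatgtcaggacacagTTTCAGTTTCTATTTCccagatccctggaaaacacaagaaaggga
Gbp7, chr3:142530176-142530335, plus strand: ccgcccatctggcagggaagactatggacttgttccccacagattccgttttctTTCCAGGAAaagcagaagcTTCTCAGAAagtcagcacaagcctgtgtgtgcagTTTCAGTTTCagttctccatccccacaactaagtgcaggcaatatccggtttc
Isg15 has 3 overlapping ISRE matches, and Oas1a and Oas1g, which share a run of 73 bases, have a pair of overlapping ISRE matches just before the start, with a GAS match farther out in Oas1a.
Isg15, chr4:156200819-156200978, minus strand: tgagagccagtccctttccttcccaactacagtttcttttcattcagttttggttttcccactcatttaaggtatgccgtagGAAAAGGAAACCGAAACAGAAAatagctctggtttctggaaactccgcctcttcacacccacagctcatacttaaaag
Oas1a, chr5:120907526-120907685, minus strand: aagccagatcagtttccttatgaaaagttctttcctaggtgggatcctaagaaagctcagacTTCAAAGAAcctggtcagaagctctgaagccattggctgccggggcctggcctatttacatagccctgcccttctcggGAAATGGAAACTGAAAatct
Oas1g, chr5:120887614-120887773, minus strand: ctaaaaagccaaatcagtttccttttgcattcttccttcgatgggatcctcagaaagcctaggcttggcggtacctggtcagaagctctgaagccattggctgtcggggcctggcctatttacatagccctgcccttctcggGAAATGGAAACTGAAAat
Ifit1 and Ifit3 each have a pair of ISRE matches, yet their transcripts went opposite ways in M-MF. Irf1, with a GAS match and no ISRE match, was lower in both comparisons.
Ifit1, chr19:34640729-34640888, plus strand: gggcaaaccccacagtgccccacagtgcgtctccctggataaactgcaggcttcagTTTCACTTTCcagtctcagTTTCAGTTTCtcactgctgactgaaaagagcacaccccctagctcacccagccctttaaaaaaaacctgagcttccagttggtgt
Ifit3, chr19:34583369-34583528, plus strand: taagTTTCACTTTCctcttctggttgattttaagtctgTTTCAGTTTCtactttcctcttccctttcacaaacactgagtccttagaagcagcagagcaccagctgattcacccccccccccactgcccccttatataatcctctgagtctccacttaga
Irf1, chr11:53769854-53770013, plus strand: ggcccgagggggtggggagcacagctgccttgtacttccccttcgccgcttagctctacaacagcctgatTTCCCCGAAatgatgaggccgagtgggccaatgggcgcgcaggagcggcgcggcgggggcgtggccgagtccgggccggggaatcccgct

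Of the receptor chains, the interferon gamma receptor chain Ifngr2 was higher with metastasis in both subgroups, and the other 3 chains moved less. Ifngr2 (NCBI gene 15980; chromosome 16 from 91547059 to 91564007 on GRCm38) had 65.7, 64.4 and 64.6 FPKM in the M-MF libraries and 34.9, 33.3 and 31.97 FPKM in N-MF. It had 48.7, 47.8 and 45.2 FPKM in M-MyoF and 20.4, 20.4 and 19.01 FPKM in N-MyoF. The metastasis libraries lay above the normal ones in both subgroups without overlap, with log2 fold changes of 0.94 ± 0.038 and 1.20 ± 0.038 (SE; limma adjusted p = 1.20e-10 and 8.19e-12). Ifngr1, the ligand-binding chain, had 137, 138 and 135 FPKM in M-MF and 175, 174 and 174 FPKM in N-MF, and fell by 0.35 on the log2 scale (limma adjusted p = 9.13e-10). In the MyoF subgroup Ifngr1 had 119, 117 and 114 FPKM in M-MyoF and 102, 101 and 101 FPKM in N-MyoF. That log2 fold change of 0.20 ± 0.017 was 0.01 after rescaling to equal sums and -0.12 after quantile normalization. The difference between the 2 subgroups' effects on Ifngr1 was -0.55 ± 0.025 (limma adjusted p = 1.14e-09).

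The type I receptor chains moved less. Ifnar2 had 137, 138 and 139.5 FPKM in M-MF and 103, 106 and 108 FPKM in N-MF, a rise of 0.39 ± 0.026 (limma adjusted p = 2.00e-08). In the other subgroup its values of 96.7, 101 and 98.4 FPKM in M-MyoF and 101, 96.8 and 102 FPKM in N-MyoF overlapped (limma adjusted p = 0.486), but it passed as lower, by -0.21, -0.18 and -0.33, after the 3 rescalings. Ifnar1 had 15.95, 15.96 and 15.7 FPKM in M-MF and 16.3, 16.5 and 16.01 FPKM in N-MF (log2 fold change -0.035 ± 0.027; limma adjusted p = 0.254), and passed as lower, by -0.14, -0.16 and -0.20, after the rescalings. Ifnar1 fell by 0.24 in M-MyoF, with 15.5, 15.7 and 15.8 FPKM against 19.2, 18.2 and 18.7 FPKM in N-MyoF (limma adjusted p = 2.70e-06).

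Stat2, a factor of the type I complex, was higher with metastasis in both subgroups as deposited. It had 18.5, 18.3 and 18.96 FPKM in M-MF and 13.3, 13.4 and 13.5 FPKM in N-MF (0.44 ± 0.027; limma adjusted p = 8.12e-09). In M-MyoF it had 18.9, 18.7 and 18.6 FPKM, against 14.9, 15.7 and 15.04 FPKM in N-MyoF (0.28 ± 0.027; limma adjusted p = 7.23e-07), a call lost under quantile normalization, where the change was 0.03.

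The Irf factors did not move together. Irf7, which drives transcription of type I interferon genes, had 31.2, 32.4 and 30.4 FPKM in M-MF and 13.7, 14.03 and 12.6 FPKM in N-MF. In the MyoF subgroup it had 32.1, 31.4 and 30.8 FPKM in M-MyoF and 16.97, 16.99 and 17.3 FPKM in N-MyoF. It rose by 1.16 ± 0.038 and 0.84 ± 0.038 on the log2 scale (limma adjusted p = 1.32e-11 and 2.91e-10). Irf1, a factor that interferon gamma induces, went the other way and was the most abundant Irf gene. Irf1 (NCBI gene 16362; chromosome 11 from 53770014 to 53778374) had 167, 169 and 169.7 FPKM in M-MF and 244, 246 and 237 FPKM in N-MF. It had 283, 284 and 283 FPKM in M-MyoF and 379, 388 and 377 FPKM in N-MyoF, so all 6 metastasis libraries lay below the normal ones of their subgroup. It fell by 0.52 in M-MF and 0.43 in M-MyoF on the log2 scale (limma adjusted p = 1.96e-11 and 1.26e-10).

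Irf9, the DNA-binding part of the type I complex, had 32.9, 30.3 and 29.3 FPKM in M-MF and 27.5, 26.6 and 25.8 FPKM in N-MF, and 40.6, 40.9 and 40.2 FPKM in M-MyoF and 36.4, 36.6 and 35.1 FPKM in N-MyoF. Its log2 fold changes of 0.20 ± 0.038 and 0.17 ± 0.038 passed as deposited (limma adjusted p = 3.12e-04 and 0.00141), but were -0.029 and -0.12 after quantile normalization. Irf5, an inflammatory factor of the Toll-like receptor pathways, had 7.16, 7.15 and 6.68 FPKM in M-MF and 3.94, 3.54 and 3.80 FPKM in N-MF, and 5.24, 6.30 and 5.82 FPKM in M-MyoF and 4.73, 5.08 and 4.99 FPKM in N-MyoF. It rose by 0.75 ± 0.057 in M-MF, and by 0.19 ± 0.057 in M-MyoF, where the call was lost in each rescaling and without the 4 libraries numbered 3. Irf8, known for myeloid cell development, rose by 0.75 ± 0.039 in M-MyoF. In M-MF its change of 0.15 ± 0.039 lost its call in each rescaling and was -0.036 after quantile normalization. Irf2 and Irf3 changed by at most 0.21 and turned negative in M-MyoF after each of the 3 rescalings.

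**Figure D3:**
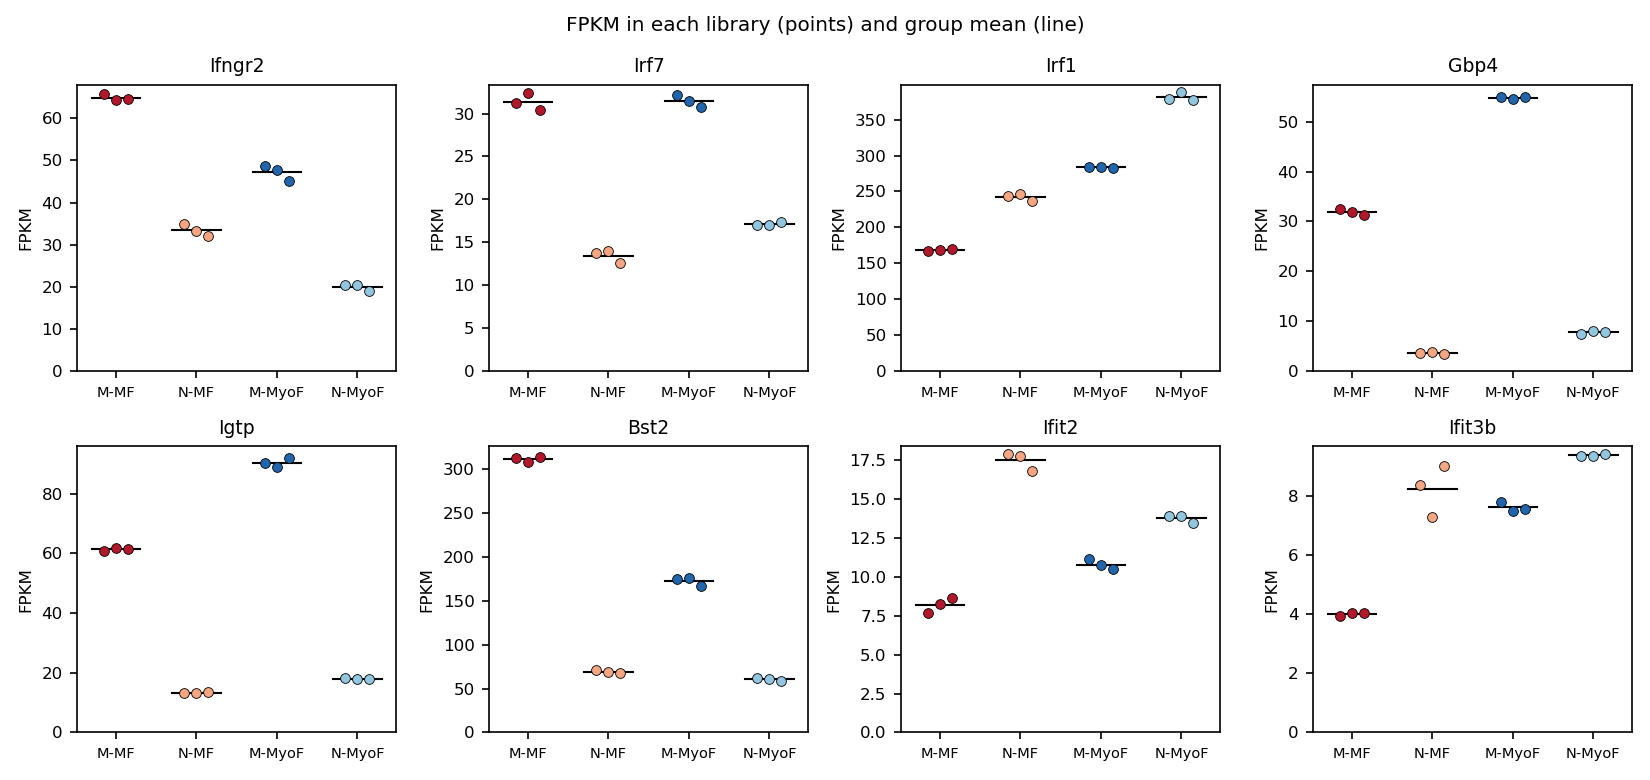
FPKM (y axes, linear from 0) of 8 members in each library, with the group mean as a line; groups run M-MF, N-MF, M-MyoF, N-MyoF. Ifngr2, Irf7, Gbp4, Igtp and Bst2 are higher in both metastasis groups than in the normal group of the same subgroup, and Irf1, Ifit2 and Ifit3b are lower.

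All 10 guanylate-binding proteins, large GTPases that assemble on the compartments of intracellular microbes and break them open, were higher with metastasis in both subgroups, under the deposited scale and each of the 3 rescalings. Of all genes, 36.7% were higher in both comparisons as deposited. At 2-fold or more, 7 guanylate-binding proteins rose in M-MF (9.32% of all genes) and 9 in M-MyoF (11.4% of all genes). Together the 10 summed to 257 to 258 FPKM in M-MF and 111 to 113 FPKM in N-MF. They summed to 344 to 352 FPKM in M-MyoF and 123 to 127 FPKM in N-MyoF. Gbp4 moved most. Gbp4 (NCBI gene 17472; chromosome 5 from 105115767 to 105139586) had 32.5, 31.9 and 31.3 FPKM in M-MF and 3.59, 3.70 and 3.40 FPKM in N-MF. It had 54.9, 54.7 and 54.9 FPKM in M-MyoF and 7.44, 7.96 and 7.87 FPKM in N-MyoF. The groups stood far apart, with log2 fold changes of 2.85 ± 0.033 and 2.67 ± 0.033 (limma adjusted p = 9.14e-16 and 1.38e-15). Gbp8 was lower in level, with 7.68, 8.39 and 7.84 FPKM in M-MF and 1.18, 1.43 and 1.21 FPKM in N-MF (1.98 ± 0.061; limma adjusted p = 7.66e-12), and with 6.28, 6.22 and 6.60 FPKM in M-MyoF and 1.29, 1.16 and 1.51 FPKM in N-MyoF (1.67 ± 0.061).

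The family lies in clusters on chromosomes 3 and 5. In M-MF against N-MF the chromosome 5 genes Gbp4, Gbp6, Gbp8, Gbp9 and Gbp10 had log2 fold changes from 1.28 to 2.85 with a median of 1.45. The chromosome 3 genes Gbp2, Gbp2b, Gbp3, Gbp5 and Gbp7 had changes from 0.71 to 1.26 with a median of 0.97. In ratios of group mean FPKM, without a pseudocount, the clusters overlapped there, with Gbp5 at 2.81 and Gbp6 at 2.62. In M-MyoF against N-MyoF the ranges were 1.17 to 2.67 and 0.91 to 1.69, which overlap. Gbp2, the most abundant, had 80.1, 83.4 and 80.4 FPKM in M-MF and 47.2, 50.5 and 49.8 FPKM in N-MF, and 98.2, 103 and 104 FPKM in M-MyoF and 44.2, 47.96 and 49.2 FPKM in N-MyoF (0.71 ± 0.04 and 1.10 ± 0.04). The paralogs of each cluster are close copies, so the split of fragments among them is uncertain.

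All 5 immunity-related GTPases, which load onto the membranes around intracellular parasites in mice, also rose in both subgroups and in each rescaling. Of all genes, 36.7% rose in both as deposited. Igtp is a regulatory GTPase of the family. Igtp (NCBI gene 16145; chromosome 11 from 58199556 to 58207592) had 60.8, 61.9 and 61.4 FPKM in M-MF and 13.2, 13.2 and 13.4 FPKM in N-MF. It had 90.3, 88.9 and 92 FPKM in M-MyoF and 18.3, 17.9 and 17.9 FPKM in N-MyoF. These groups were several-fold apart in both subgroups, at 2.13 ± 0.022 and 2.26 ± 0.022 (limma adjusted p = 3.38e-16 and 1.91e-16). Ifi47, another GTPase of the family, had 71.04, 70.3 and 68.5 FPKM in M-MF and 16.2, 15.4 and 16.3 FPKM in N-MF, and 70.6, 70.2 and 70.9 FPKM in M-MyoF and 12.5, 13.01 and 13.7 FPKM in N-MyoF (2.07 ± 0.032 and 2.35 ± 0.032). Irgm2 rose by 1.41 ± 0.044 and 1.16 ± 0.044, and Irgm1, the most abundant of the family by mean over libraries, by 0.64 ± 0.035 and 0.53 ± 0.035.

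Iigp1, a GTPase that disrupts parasite vacuoles, differed between the subgroups. It had 71.9, 67.95 and 67.7 FPKM in M-MF and 21.01, 21.4 and 20.4 FPKM in N-MF. It had 86.7, 86.2 and 86.8 FPKM in M-MyoF and 64.5, 65.5 and 66.01 FPKM in N-MyoF, so N-MyoF was already near the M-MF level. The log2 fold changes were 1.68 ± 0.026 in M-MF and 0.40 ± 0.026 in M-MyoF, where it was 0.08 after quantile normalization, and their difference was 1.28 ± 0.037 (limma adjusted p = 2.33e-11).

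The enzymes of the oligoadenylate synthetase family make the short adenylate chains that activate ribonuclease L. Of its 8 tested genes, 7 rose in each subgroup and each rescaling, and Oas1d did not pass. As deposited, 36.7% of all genes rose in both subgroups. Oas1a was close to 0 in all normal libraries. Oas1a (NCBI gene 246730; chromosome 5 from 120896256 to 120907544) had 4.37, 4.66 and 3.38 FPKM in M-MF and 0, 0.03 and 0.03 FPKM in N-MF. It had 7.41, 8.90 and 8.62 FPKM in M-MyoF and 0, 0 and 0.06 FPKM in N-MyoF (2.32 ± 0.088 and 3.19 ± 0.088; limma adjusted p = 5.39e-11 and 1.95e-12), and with normal libraries so near 0 the size of these changes depends on the pseudocount. Oas1g, its close copy, followed with 1.77, 1.35 and 1.32 FPKM in M-MF and 0, 0 and 0 FPKM in N-MF, and 2.24, 2.58 and 2.38 FPKM in M-MyoF and 0, 0.05 and 0 FPKM in N-MyoF, and the split between the copies is uncertain. Oasl1, known in mice to hold back translation of Irf7, had 8.46, 8.29 and 6.58 FPKM in M-MF and 1.24, 1.65 and 1.09 FPKM in N-MF. In the MyoF subgroup Oasl1 had 8.68, 9.18 and 8.33 FPKM in M-MyoF and 1.25, 0.90 and 1.20 FPKM in N-MyoF, and it rose by 1.92 ± 0.10 and 2.20 ± 0.10 (limma adjusted p = 1.80e-09 and 3.76e-10). Oasl2 was the most abundant of the family and moved less, by 0.46 ± 0.036 and 0.56 ± 0.036.

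Isg15, a ubiquitin-like protein joined to other proteins after interferon, had 26.04, 28.3 and 24.3 FPKM in M-MF and 13.6, 12.6 and 14.6 FPKM in N-MF. In the MyoF subgroup it had 32.3, 34.4 and 30.7 FPKM in M-MyoF and 16.7, 12.1 and 16.2 FPKM in N-MyoF. It rose by 0.90 ± 0.10 and 1.08 ± 0.10 (limma adjusted p = 3.07e-06 and 4.51e-07). Usp18, which removes Isg15 and damps the type I receptor, rose by 0.91 ± 0.046 and 0.87 ± 0.046 (limma adjusted p = 1.17e-09 and 1.52e-09).

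The PYHIN genes, a cluster on chromosome 1 whose products bind DNA or block those that do, rose more in the MyoF subgroup, while their summed level was higher in matrix fibroblasts. All 11 summed to 492 to 504 FPKM in M-MF and 268 to 273 FPKM in N-MF, but to 84.7 to 89.7 FPKM in M-MyoF and 10.2 to 11.5 FPKM in N-MyoF. The 6 that were tested rose in both comparisons (36.7% of all genes). In M-MF, Ifi211 lost its call with a pseudocount of 0.1 and under quantile normalization. The difference of the effects was negative for all 6, from -3.18 to -0.40 on the log2 scale. It passed for all 6 (38% of all genes passed as lower), and did so in each rescaling. Its size depended on the pseudocount, as most of these genes were low in N-MyoF. With a pseudocount of 5, it was -0.50 for Ifi202b, -0.40 for Ifi207 and -0.56 for Ifi211. The group means of Ifi205 no longer gave a negative difference with that pseudocount. Ifi204 differed most. Ifi204 (NCBI gene 15951; chromosome 1 from 173747293 to 173767069) had 83.4, 79.6 and 76.8 FPKM in M-MF and 53.8, 51.1 and 51.02 FPKM in N-MF. It had 33.5, 31.6 and 32.1 FPKM in M-MyoF and 1.36, 1.60 and 1.29 FPKM in N-MyoF. The rises were 0.61 ± 0.047 and 3.79 ± 0.047, with a difference of -3.18 ± 0.066 (limma adjusted p = 1.09e-12).

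Ifi202b, known for blocking the DNA sensor Aim2, had 34.5, 32.4 and 37.7 FPKM in M-MF and 9.17, 8.18 and 8.17 FPKM in N-MF, and 21.9, 19.5 and 21.2 FPKM in M-MyoF and 1.34, 0.99 and 1.20 FPKM in N-MyoF. It rose by 1.92 ± 0.07 and 3.33 ± 0.07 (limma adjusted p = 4.23e-11 and 1.67e-13). Ifi205, the most abundant PYHIN gene in both MF groups, had 268, 262 and 263 FPKM in M-MF and 139.7, 138 and 135 FPKM in N-MF. In the MyoF subgroup Ifi205 had 10.8, 9.82 and 9.04 FPKM in M-MyoF and 3.80, 2.81 and 3.28 FPKM in N-MyoF, and it rose by 0.94 ± 0.071 and 1.34 ± 0.071. Ifi207 had 94.6, 93.5 and 93.3 FPKM in M-MF and 56.98, 58.8 and 57.2 FPKM in N-MF, and 9.05, 8.93 and 9.28 FPKM in M-MyoF and 1.63, 1.73 and 1.89 FPKM in N-MyoF. Its rises were 0.69 ± 0.034 and 1.88 ± 0.034, with a difference of -1.18 ± 0.047. Ifi211 had 13.5, 15.1 and 19.5 FPKM in M-MF and 9.21, 11.1 and 12.6 FPKM in N-MF, and 4.30, 5.16 and 6.28 FPKM in M-MyoF and 0.48, 0.20 and 0.15 FPKM in N-MyoF. Ifi203 had 7.49, 7.25 and 7.05 FPKM in M-MF and 3.64, 3.71 and 4.13 FPKM in N-MF, and 8.56, 7.61 and 7.66 FPKM in M-MyoF and 1.60, 1.81 and 1.93 FPKM in N-MyoF, where the M-MyoF libraries lay just above those of M-MF. Several of these genes are close copies, so their split is uncertain.

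**Figure D4:**
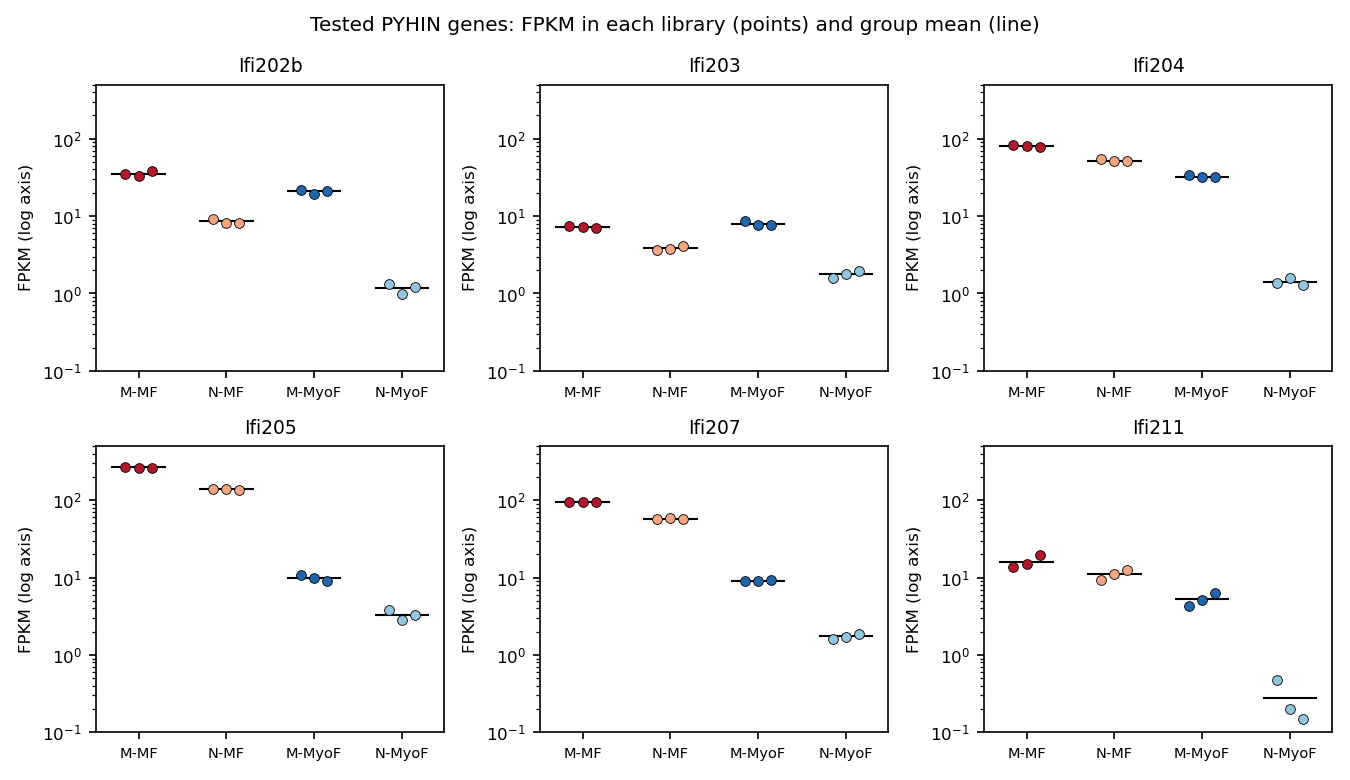
FPKM (y axes, log scale) of the 6 tested PYHIN genes in each library, with the group mean as a line; groups run M-MF, N-MF, M-MyoF, N-MyoF. In every panel the points of a metastasis group lie above those of the normal group beside it, and the N-MyoF points lie lowest.

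The Ifit genes, whose products bind viral RNA and hold back its translation, did not follow the other antiviral families. In M-MF, 3 of 4 tested were lower (31.8% of all genes) and Ifit1 was higher (46.3% of all genes). Ifit2 (NCBI gene 15958; chromosome 19 from 34550550 to 34576534) had 7.65, 8.26 and 8.61 FPKM in M-MF and 17.9, 17.8 and 16.8 FPKM in N-MF. In the MyoF subgroup it had 11.1, 10.8 and 10.5 FPKM in M-MyoF and 13.9, 13.9 and 13.5 FPKM in N-MyoF. All metastasis libraries lay below the normal ones, and it fell by 1.01 and 0.32 on the log2 scale (limma adjusted p = 1.24e-10 and 9.90e-06). Its fall in M-MF was just past 2-fold and came under it without M-MF replicate 1 or N-MF replicate 1, where 0 members were lower by 2-fold. Ifit3b had 3.96, 4.05 and 4.03 FPKM in M-MF and 8.39, 7.30 and 9.03 FPKM in N-MF, and 7.81, 7.49 and 7.57 FPKM in M-MyoF and 9.38, 9.36 and 9.43 FPKM in N-MyoF, and fell by 0.88 and 0.27 (limma adjusted p = 9.06e-09 and 5.74e-04).

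Ifit3 had 14.2, 16.2 and 14.9 FPKM in M-MF and 24.8, 25.2 and 23.1 FPKM in N-MF, and fell by 0.66 (limma adjusted p = 1.55e-06). Its values of 17.9, 16 and 15.4 FPKM in M-MyoF and 16.7, 18.2 and 15.3 FPKM in N-MyoF overlapped, with a change of -0.023 ± 0.069 (limma adjusted p = 0.771), which passed as lower after the 3 rescalings, at -0.20, -0.17 and -0.28. The promoters of Ifit3 and Ifit3b share an identical run of 169 bases, and the split of fragments between these copies is uncertain. Ifit1 rose, with 8.44, 8.43 and 8.83 FPKM in M-MF and 7.12, 6.14 and 6.20 FPKM in N-MF, and 12.1, 12.9 and 12.2 FPKM in M-MyoF and 6.32, 5.55 and 6.74 FPKM in N-MyoF (0.36 ± 0.063 and 0.90 ± 0.063; limma adjusted p = 1.85e-04 and 2.42e-08). The difference of the effects, that in MF minus that in MyoF, was negative and passed for all 4 genes, also in each rescaling. As deposited, 38% of all genes passed as lower. The differences were -0.54 ± 0.088 for Ifit1, -0.69 ± 0.059 for Ifit2, -0.64 ± 0.10 for Ifit3 and -0.61 ± 0.078 for Ifit3b. These 4 genes lie within a cluster on chromosome 19 from 34550550 to 34662981.

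The Ifitm genes encode membrane proteins that block virus entry, and Ifitm3 and Ifitm2 were the most abundant members of all, with 35.0% and 23.1% of the members' summed FPKM. Ifitm3 had 2194, 2247 and 2245 FPKM in M-MF and 1622, 1672 and 1677 FPKM in N-MF, a rise of 0.43 ± 0.023 (limma adjusted p = 2.02e-09). In M-MyoF it had 2314, 2391 and 2376 FPKM, against 2011, 2137 and 2115 FPKM in N-MyoF, and that change of 0.18 ± 0.023 was -0.014 after rescaling to equal sums. Ifitm1 had 178, 199.9 and 196 FPKM in M-MF and 60.4, 65.4 and 68.9 FPKM in N-MF, and 259, 271 and 260.4 FPKM in M-MyoF and 109, 113 and 116 FPKM in N-MyoF. It rose by 1.55 ± 0.049 and 1.22 ± 0.049 (limma adjusted p = 1.01e-11 and 9.31e-11). Ifitm2 rose by 0.46 ± 0.046 in M-MyoF, and its change of 0.20 ± 0.046 in M-MF lost its call after rescaling to equal sums and after median-ratio scaling, at 0.09 and 0.07.

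Ifitm6 gave the largest change of any member. Ifitm6 (NCBI gene 213002; chromosome 7 from 141015812 to 141016892) had 429, 424 and 432 FPKM in M-MyoF and 2.34, 1.30 and 1.41 FPKM in N-MyoF. In the MF subgroup it had 5.55, 4.35 and 6.04 FPKM in M-MF and 1.12, 0.70 and 1.08 FPKM in N-MF. The groups did not overlap in either subgroup, and the rises were 7.34 ± 0.14 in M-MyoF and 1.68 ± 0.14 in M-MF (limma adjusted p = 4.97e-14 and 1.22e-07). The sums of the 13 neutrophil markers, 13454 to 13796 FPKM in M-MyoF against 144 to 157 FPKM in N-MyoF, and 262 to 271 FPKM in M-MF against 34.3 to 38.9 FPKM in N-MF, were high in the same libraries. Their part in the Ifitm6 result was not tested. Ngp, a neutrophil granule gene, had 1305 ± 23.8 FPKM in M-MyoF and 6.61 ± 0.343 FPKM in N-MyoF (mean ± SD, n = 3 each).

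Ifitm10, and Ifitm5, a gene of bone mineralisation, were lower in M-MyoF. Ifitm10 had 8.37, 9.05 and 8.84 FPKM in M-MyoF and 16.2, 16.7 and 16.3 FPKM in N-MyoF, and fell by 0.84 (limma adjusted p = 1.64e-06). Its values of 3.86, 4.46 and 3.96 FPKM in M-MF and 3.18, 4.25 and 2.87 FPKM in N-MF overlapped, and their difference of 0.21 ± 0.089 passed narrowly (limma adjusted p = 0.045) and no longer did in each rescaling or in most of the other alternatives. Ifitm5 had 3.11, 3.90 and 4.42 FPKM in M-MyoF and 7.56, 6.18 and 7.24 FPKM in N-MyoF, and fell by 0.74 (limma adjusted p = 4.93e-04). In M-MF its 1.92, 2.73 and 3.19 FPKM overlapped with 3.65, 2.36 and 3.16 FPKM in N-MF.

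**Figure D5:**
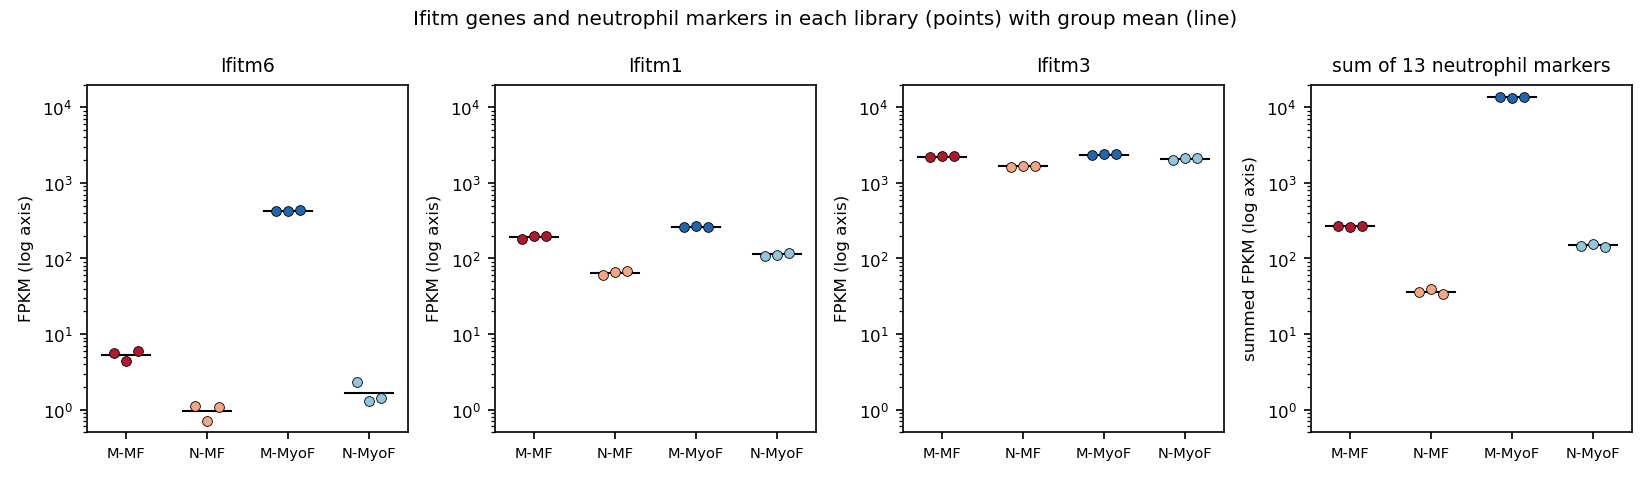
FPKM of Ifitm6, Ifitm1 and Ifitm3 and the summed FPKM of 13 neutrophil markers (y axes, log scale) in each library, with the group mean as a line; groups run M-MF, N-MF, M-MyoF, N-MyoF. Ifitm6 and the neutrophil sum are both highest in M-MyoF, while Ifitm3 stays between 1622 and 2391 FPKM in all 12 libraries.

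Among the remaining antiviral genes, Bst2 and Ifi44 rose most. Bst2, the tether that holds budding virus at the membrane (NCBI gene 69550; chromosome 8 from 71534255 to 71537472), had 313, 308 and 313 FPKM in M-MF and 70.6, 69.1 and 67.4 FPKM in N-MF. It had 174, 176 and 167 FPKM in M-MyoF and 62.2, 61.4 and 58.5 FPKM in N-MyoF. The rises were 2.16 ± 0.028 and 1.49 ± 0.028 (limma adjusted p = 2.24e-15 and 5.65e-14), with a difference of 0.67 ± 0.04 in favour of M-MF (limma adjusted p = 1.70e-08). Ifi44 had 8.71, 8.54 and 8.60 FPKM in M-MF and 0.43, 0.52 and 0.53 FPKM in N-MF, and 12.7, 13 and 11.8 FPKM in M-MyoF and 1.78, 1.75 and 1.54 FPKM in N-MyoF. It rose by 2.69 ± 0.049 and 2.33 ± 0.049 (limma adjusted p = 4.74e-14 and 1.61e-13). Rsad2, which encodes the antiviral enzyme viperin, was at 2.43 to 2.50 FPKM in M-MF and 0.67 to 0.82 FPKM in N-MF, and rose by 1.0 ± 0.047 and 0.64 ± 0.047. Ifi35 rose by 0.75 ± 0.032 and 0.88 ± 0.032, and Ifi44l by 0.46 ± 0.10 and 1.0 ± 0.10. Ifi44l was low, at 1.09 to 1.37 FPKM in M-MF and 0.35 to 0.77 FPKM in N-MF. It had 1.23 to 1.55 FPKM in M-MyoF and 0.09 to 0.32 FPKM in N-MyoF, so the size of its changes depends on the pseudocount.

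Ifi27l2a moved in opposite directions. It had 154, 151 and 153 FPKM in M-MF and 242, 233 and 226 FPKM in N-MF. It had 52.5, 51.1 and 46.5 FPKM in M-MyoF and 16.7, 20.9 and 20.8 FPKM in N-MyoF. It fell by 0.61 in M-MF and rose by 1.32 ± 0.07 in M-MyoF (limma adjusted p = 4.28e-06 and 1.57e-09). The difference was -1.93 ± 0.10 (limma adjusted p = 4.34e-09). On chromosome 12 its span from 103433873 to 103443680 covers that of Ifi27, from 103434189 to 103440245. The split of fragments between Ifi27l2a and Ifi27 is therefore uncertain. Ifi30, a lysosomal thiol reductase of antigen processing, had 89.5, 86.7 and 80.8 FPKM in M-MF and 92.8, 97.6 and 98.4 FPKM in N-MF, and fell by 0.17. With 61.98, 61.8 and 66.3 FPKM in M-MyoF and 48.7, 52.8 and 50.9 FPKM in N-MyoF it rose by 0.31 ± 0.043, a call lost under quantile normalization at 0.04. Isg20, an exonuclease that degrades RNA, had 30, 29.8 and 32.8 FPKM in M-MF and 35.2, 32.9 and 33.8 FPKM in N-MF, and 46.7, 49.3 and 49.1 FPKM in M-MyoF and 53.5, 52.01 and 53.6 FPKM in N-MyoF. It fell by 0.13 in each subgroup (limma adjusted p = 0.00621 and 0.00669). Ifi27, a mitochondrial protein, changed by 0.078 ± 0.029 in M-MF, which was -0.033, -0.058 and -0.23 after the 3 rescalings and lost its call without M-MF replicate 1 or 2 or N-MF replicate 3 (0.07, 0.08 and 0.05), and it fell by 0.14 in M-MyoF, with 215, 214 and 205 FPKM against 239, 236 and 226 FPKM in N-MyoF.

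The interferons themselves were scarcely represented. Of 21 interferon ligand genes looked for, 12 were in the table, none passed the filter on low values, and the highest value in any library was 0.27 FPKM. Ligand RNA was therefore not detectable above the filter in either metastasis group. Of the kinases and regulators of the pathway, 7 of 12 tested were higher and 3 lower in M-MF (46.3% and 31.8% of all genes). In M-MyoF 5 were higher and 7 lower (49.1% and 31.6% of all genes). The shares higher lay near those of all genes, but the share lower in M-MyoF lay above it. The median log2 fold changes were 0.24 and -0.14, beside 0.08 and 0.11 for all genes tested. Socs3, a feedback inhibitor, was at 442 ± 17.1 FPKM in M-MF and 732 ± 25.7 FPKM in N-MF, and fell by 0.73 (limma adjusted p = 2.04e-09). Cish, of the same inhibitor family, rose by 1.05 ± 0.026 in M-MF, at a mean of 28.5 FPKM against 13.2 FPKM in N-MF. In M-MyoF its mean of 43.6 FPKM lay below the 49.8 FPKM of N-MyoF. The tyrosine phosphatase Ptpn6 rose by 1.32 ± 0.061 in M-MF and 2.15 ± 0.061 in M-MyoF. Ptpn2, a phosphatase that acts on Jak kinases, fell by 0.71 in M-MyoF, at 48.7 ± 3.14 FPKM against 80.3 ± 0.97 FPKM in N-MyoF. In M-MF it went the other way, at 38.2 ± 2.66 FPKM against 23.6 ± 0.316 FPKM in N-MF.

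Of 13 nucleic acid sensors and adaptors tested, 8 were higher and 3 lower in M-MF (46.3% and 31.8% of all genes), and 10 higher and 1 lower in M-MyoF (49.1% and 31.6% of all genes), with median log2 fold changes of only 0.21 and 0.20. Zbp1, a sensor of left-handed nucleic acids, had 60.0 ± 3.41 FPKM in M-MF and 5.83 ± 0.445 FPKM in N-MF (3.16 ± 0.082; limma adjusted p = 1.41e-12), and 47.2 ± 2.82 FPKM in M-MyoF and 2.32 ± 0.43 FPKM in N-MyoF (3.87 ± 0.082). Tmem173, which encodes Sting, rose by 1.30 ± 0.028 in M-MF. Myd88, the adaptor of Toll-like receptors, fell by 0.69 in M-MF and 1.03 in M-MyoF (limma adjusted p = 9.95e-12 and 1.88e-13).

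Of 43 interferon-stimulated genes outside the families that were tested, 35 were higher and 2 lower in M-MF (46.3% and 31.8% of all genes), and 37 higher and 1 lower in M-MyoF (49.1% and 31.6% of all genes), with median log2 fold changes of 0.59 and 0.61. The GTPase gene Tgtp2 had 53.1 ± 0.569 FPKM in M-MF and 7.1 ± 0.279 FPKM in N-MF, and rose by 2.74 ± 0.029 and 2.47 ± 0.029. Apol9a rose by 3.44 ± 0.052 and 3.72 ± 0.052, though the split between it and its copy Apol9b is uncertain. Of 16 tested genes typical of interferon gamma and of antigen presentation, 15 were higher in M-MF (46.3% of all genes) and all 16 in M-MyoF (49.1% of all genes), with medians of 1.30 and 1.66. Cxcl9, a chemokine that interferon gamma induces, had 10.7 ± 0.189 FPKM in M-MF and 0.233 ± 0.0513 FPKM in N-MF, and 12.6 ± 0.583 FPKM in M-MyoF and 0.22 ± 0.0265 FPKM in N-MyoF (3.24 ± 0.046 and 3.48 ± 0.046; limma adjusted p = 4.38e-15 and 2.59e-15). Psmb8, a subunit of the immunoproteasome, rose by 2.58 ± 0.05 and 3.29 ± 0.05.

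The subgroups also differed within normal lungs and within lungs with metastasis. In N-MF against N-MyoF, 19 members were higher (24.5% of all genes) and 31 lower (57.6% of all genes), and in M-MF against M-MyoF 16 were higher (19.1% of all genes) and 37 lower (66% of all genes). These splits rested on the scaling, since median-ratio scaling gave 30 higher and 18 lower in the first (43.3% and 37.2% of all genes) and 28 higher and 19 lower in the second (37.9% and 39.8% of all genes). All 6 tested PYHIN genes were higher in N-MF than N-MyoF as deposited and in the 3 rescalings. In M-MF against M-MyoF, 5 of 6 were higher as deposited and with equal sums, and 6 of 6 in the other rescalings, the exception being Ifi203 at -0.11 ± 0.058 (limma adjusted p = 0.0891). Ifi205 was 5.01 ± 0.071 higher on the log2 scale in N-MF than in N-MyoF and 4.61 ± 0.071 higher in M-MF than in M-MyoF (limma adjusted p = 2.38e-15 and 7.36e-15). Ifi207 was 4.42 ± 0.034 and 3.23 ± 0.034 higher, and Ifi27l2a 3.52 ± 0.07 and 1.59 ± 0.07 higher. On the other side, Gbp4 had a log2 difference of -0.94 ± 0.033 in N-MF against N-MyoF and Oas1a one of -0.86 ± 0.088 in M-MF against M-MyoF. Ifitm10 had a log2 difference of -1.99 ± 0.089 and Iigp1 of -1.60 ± 0.026 in N-MF against N-MyoF. Ifitm6 had -6.10 ± 0.14 in M-MF against M-MyoF, where the neutrophil marker sums were 262 to 271 FPKM and 13454 to 13796 FPKM.

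Between the subgroups' metastasis effects, 21 of 64 members differed with a higher change in M-MF (26.4% of all genes) and 29 with a lower one (38% of all genes), of which 2 and 6 differed by at least 2-fold (3.83% and 3.27% of all genes). The shares past the threshold were 32.8% and 45.3%, not far from those of all genes. At 2-fold or more they were 3.12% and 9.38%, and the second, from 6 members, lay above that of all genes. The median difference was -0.10 over members and -0.06 over all genes tested.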

How the data were processed

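The submitters deposited 1 table of FPKM per gene for 12 libraries, made by the authors from polyA RNA, with SMART-seq2 cDNA and transposon-based libraries per the labels' protocols, on GRCm38 per the submitters' processing notes. The aligner and counter are not known from these sources. The 13300 genes that reached 1 FPKM in 3 or more libraries were fitted on log2(FPKM + 1) with limma 3.58.1 (R 4.3.3), with a mean-variance trend and 1 mean per group over all 12 libraries. P-values were adjusted by Benjamini-Hochberg over all genes tested, with a threshold of 0.05. A fold change on this scale understates the change of low genes. Read depth is unknown, so no counting interval is given.

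The members and lists were chosen with earlier results of these data known. Values in every library are given for the receptor chains, Stat2, Irf1, Irf7 and Irf9. They are also given for the 8 members with the largest change per metastasis comparison and direction (passed, no overlap, and the higher group averaging 5 FPKM or more), the 5 with the largest difference of effects per direction and the 4 largest per subgroup comparison and direction; some further family members are shown as examples. Some members are counted but not reported here by name. List genes named are among the 4 with the smallest p per list and metastasis comparison. Libraries with the same number deviated together: the correlation of their deviations from group means ran from 0.482 to 0.796 over 18 pairs, and from -0.683 to 0.38 over 36 pairs with different numbers, across 1830 genes. The numbers come from the sample titles. Alternatives were the pseudocount, filter, scaling, replicate block, trend, samples in the fit and each library left out. In a simulation of the M-MF and N-MF comparison over 12615 genes, changes were given to 50 genes per size. These came from genes above 2 on the log2(FPKM + 1) scale in N-MF, and all others were left unchanged. Of genes changed by 0.25 on the log2 scale 80% were recovered, with 98% at 0.5, 98% at 1 and 100% at 2. The simulated libraries varied independently, whereas real ones with the same number deviated together. The simulation thus does not show the recovery of lower genes or of changes in such libraries. Promoters are from RefSeq, on GRCm38.p6. Python 3.11.15, pandas 2.3.3, numpy 2.4.6 and matplotlib 3.10.9 were used.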

Additional observations from a re-analysis of the deposited data

Results flagged for a closer look

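For 8 members the metastasis effect differed by at least 2-fold between the subgroups, by limma's test of the difference itself (MF effect minus MyoF effect, on the log2 scale). It was negative, with the larger rise in M-MyoF, for Ifitm6 (-5.66), Ifi204 (-3.18), Ifi211 (-1.78), Ifi202b (-1.41) and Ifi207 (-1.18). For Ifi27l2a it was -1.93, with a fall in M-MF and a rise in M-MyoF. It was positive for Iigp1 (1.28) and Ifitm10 (1.05). The Ifitm10 difference came under 2-fold without M-MF replicate 2 (0.996), without N-MF replicate 3 (0.955) and without the 4 libraries numbered 3 (0.98). With a pseudocount of 5, the differences of Ifi202b, Ifi207, Ifi211 and Ifitm10 were under 2-fold (-0.50, -0.40, -0.56 and 0.75). All of these kept their direction and passed.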

How the results depend on the processing

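FPKM without read depth cannot separate counting error from other spread, and 3 libraries a group limit every test. Counts of members higher or lower kept within 1.5 times of the reported ones except as follows. With a pseudocount of 5, 13 members were at least 2-fold higher in M-MF and 19 in M-MyoF. Members at least 2-fold lower in M-MF numbered 2 with a pseudocount of 0.1, 0 with 5 and 2 with median-ratio scaling, and 0 to 1 with 1 library left out. In M-MyoF, 15 members were lower after quantile normalization, and 1 was at least 2-fold lower there and after rescaling to equal sums. N-MF against N-MyoF gave 30 higher and 18 lower under median-ratio scaling. M-MF against M-MyoF gave 28 higher and 19 lower under median-ratio scaling, and 25 and 24 under quantile normalization. The replicate block (library numbers as pairs) gave 52 higher and 9 lower in M-MF, 50 and 9 in M-MyoF, and moved no count by over 1.5 times.

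Directions turned for these genes. In M-MF, equal library sums, median ratios and quantile normalization gave -0.033, -0.058 and -0.23 for Ifi27. Median-ratio scaling and quantile normalization gave -0.023 and -0.11 for Irf3, and quantile normalization gave -0.036 for Irf8 and -0.029 for Irf9. In M-MyoF, the 3 rescalings gave -0.11, -0.084 and -0.19 for Irf2 and -0.15, -0.12 and -0.25 for Irf3. Equal sums gave -0.014 for Ifitm3 and -0.020 for Irf9, and quantile normalization gave -0.12 for Irf9, -0.12 for Ifngr1 and -0.016 for Tmem173. With 1 library left out, Ifit3 in M-MyoF ran from -0.083 to 0.035 and Oas1d in M-MF from -0.079 to 0.35. The cause was not tested.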

Other observations

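Oas1d was listed at 1.73 FPKM in M-MF replicate 3, 1.18 FPKM in N-MF replicate 3 and 1.56 FPKM in N-MyoF replicate 3, and at 0 in the other 9 libraries. Ifi208, a PYHIN gene below the filter, had 0.93 to 1.28 FPKM in M-MF and 0.30 to 0.34 FPKM in N-MF.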
